A study of Mus musculus with 8 samples.

Results

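Sialyltransferases are the Golgi enzymes that place sialic acid at the ends of the sugar chains of glycoproteins and glycolipids. The genes described here are the 10 members of that family chosen by symbol among the 27594 genes of the count table, namely St3gal1, St3gal2, St3gal4, St3gal6, St6gal1, St6galnac4, St6galnac6, St8sia1, St8sia4 and St8sia6. The set was taken up because St8sia6 was seen to be lower in Foxp1-deficient resting regulatory T (Treg) cells, so that contrast is given below as a description without a test. RNA was sequenced from CD4+YFP+ Treg cells sorted from C57BL/6 mice aged 6 to 8 weeks, using their spleens and peripheral lymph nodes. Resting Treg (rTreg) cells were gated as CD44 low and activated Treg (aTreg) cells as CD44 high, together with a further surface marker. The WT mice carried Foxp3-YFP-Cre, a Cre recombinase joined to a yellow fluorescent protein and driven from the Foxp3 locus. The Foxp1-deficient mice (Foxp1 cKO) carried the same Cre together with 2 loxP-flanked Foxp1 alleles (Foxp1 fl/fl), so every group holds the Cre and the deletion is limited to cells that express Foxp3. Each of the 4 groups (WT rTreg, Foxp1 cKO rTreg, WT aTreg and Foxp1 cKO aTreg) had 2 libraries. The labels do not say whether a library came from 1 mouse or from a pool, and the p-values measure only the spread between these libraries.

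Sialyltransferases are named for the bond they make and the sugar they act on. The ST3GAL enzymes add sialic acid in an alpha2,3 linkage to galactose, ST6GAL1 adds it in an alpha2,6 linkage to galactose, the ST6GALNAC enzymes add it in an alpha2,6 linkage to N-acetylgalactosamine, and the ST8SIA enzymes extend an existing sialic acid in an alpha2,8 linkage. On T cells, sialic acids cap the chains that galectins would otherwise bind, form part of the selectin ligand sialyl Lewis x, and are read by sialic acid-binding lectins of the Siglec family. Naive and activated T cells are known to differ in these caps, and ST3GAL1 is the enzyme that caps the core 1 O-glycan that peanut agglutinin recognises when it is bare.

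The count totals ran from 6373170 reads in Foxp1 cKO rTreg replicate 1 to 15268623 reads in WT aTreg replicate 2, with a median of 12327710. All 10 members passed the filter on low counts, as did 14540 genes in all. The gate was visible in the RNA. Cd44 lay between 29.6 and 45.3 CPM (counts scaled to a common library size) in rTreg libraries and between 174 and 214 CPM in aTreg libraries. All 7 Treg markers examined were present in every group, with summed levels of 2830 to 4390 CPM. Foxp1 counted over the whole gene was 354 and 384 CPM in WT rTreg, 342 and 338 CPM in Foxp1 cKO rTreg, 235 and 230 CPM in WT aTreg, and 126 and 102 CPM in Foxp1 cKO aTreg cells. These counts include exons outside the deleted part and therefore do not check the deletion. Replicate numbers also separated sex. Xist, the RNA that coats the inactive X chromosome, had 0 to 3 counts in the libraries numbered 1 and 15098 to 21822 counts in those numbered 2.

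The starts of 3 members are shown for their place in the results. St8sia6 is the gene that led to the choice of the family, St8sia1 was down-regulated in Foxp1-deficient aTreg cells, and St6galnac6 had the highest fold difference between the subsets. The promoters are RefSeq sequences on GRCm38.p6, each 250 bases before and 50 bases after a start, written 5′ to 3′ on the strand of the gene. Capitals mark CG dinucleotides in the ST8SIA promoters, and the match to a forkhead motif in the St6galnac6 promoter.
St8sia6 promoter (chr2:13793471-13793770, minus strand): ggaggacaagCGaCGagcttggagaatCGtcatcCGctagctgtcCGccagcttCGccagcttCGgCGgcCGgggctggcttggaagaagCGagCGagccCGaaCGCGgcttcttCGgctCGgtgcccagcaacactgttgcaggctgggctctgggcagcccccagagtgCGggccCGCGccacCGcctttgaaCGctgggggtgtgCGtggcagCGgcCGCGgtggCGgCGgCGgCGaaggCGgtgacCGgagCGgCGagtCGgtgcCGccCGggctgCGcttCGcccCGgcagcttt
St8sia1 promoter (chr6:142964403-142964702, minus strand): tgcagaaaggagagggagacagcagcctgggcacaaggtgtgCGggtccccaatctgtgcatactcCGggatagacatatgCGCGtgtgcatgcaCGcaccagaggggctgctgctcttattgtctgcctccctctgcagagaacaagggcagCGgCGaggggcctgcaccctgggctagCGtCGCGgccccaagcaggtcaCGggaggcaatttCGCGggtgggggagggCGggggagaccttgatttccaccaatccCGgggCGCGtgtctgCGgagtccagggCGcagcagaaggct
St6galnac6 promoter (chr2:32599459-32599758, plus strand): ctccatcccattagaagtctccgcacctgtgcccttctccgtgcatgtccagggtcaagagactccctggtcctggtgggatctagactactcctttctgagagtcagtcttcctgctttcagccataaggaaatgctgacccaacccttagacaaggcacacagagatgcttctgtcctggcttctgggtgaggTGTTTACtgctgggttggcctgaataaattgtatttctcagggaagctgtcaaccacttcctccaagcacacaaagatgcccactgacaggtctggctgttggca
RefSeq promoters were matched for 8 of the 10 members, 11 promoters in all, and those of St3gal1 and St3gal2 were not used here. The St8sia6 promoter held 39 CG dinucleotides, a number that 4.45% of the 32851 promoters in the table reached. The St8sia1 promoter held 19, reached by 28.1% of promoters, and the St6galnac6 promoter held 2, reached by 85.9%, against a median of 7 over all promoters. The forkhead core GTAAACA, searched on both strands (TGTTTAC on the other), was found in 1 of the 11 promoters, that of St6galnac6, where it lay on the minus strand of the gene at position 196 of the 300 bases, 55 bases before the start. It was found in 3.65% of all promoters of the same length. A match is a string of letters and not a measured binding site.

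The genes lie on 7 chromosomes in GENCODE M21 on GRCm38 (mm10). St8sia6 spans chr2:13651021-13794064 on the minus strand and St8sia1 spans chr6:142821545-142964452 on the minus strand. St6galnac4 (chr2:32587095-32599698) and St6galnac6 (chr2:32599709-32620806) are neighbours on the plus strand, with 10 bases between the annotated end of one and the start of the other. Some members overlap a gene on the opposite strand, and the strand setting of the counting is not given in the sources used here. St3gal6 shares 1603 exon bases, 26.0% of its exon length, with Dcbld2, and St3gal4 shares 412 bases, 14.1%, with 4930581F22Rik. If strand was not used, reads on these shared bases cannot be assigned to either gene of a pair alone. How the counting handled such reads is not given either. The shares in St6gal1 (4.07%), St8sia1 (1.6%) and St8sia6 (1.46%) were smaller.

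Levels were first compared between the genes, as FPKM, which divides the count by the exon length and the library total. In WT rTreg cells St6gal1 had the highest level, at 46.1 and 45.8 FPKM. St8sia6 followed at 26.8 and 34.1 FPKM and St3gal1 at 30.4 and 27.0 FPKM, and their ranges overlapped. St8sia1, St3gal4 and St3gal2 formed a middle group with mean levels of 15.5, 15.4 and 14.9 FPKM that did not differ beyond their spread. St8sia4 (5.28 FPKM) and St6galnac4 (5.13 FPKM) came next with overlapping ranges, and St3gal6 (1.12 FPKM) and St6galnac6 (0.819 FPKM) were lowest. The ranges between these tiers did not overlap. The place of St8sia4 rests on a length of 20091 bases, the longest of the members, against 6482 bases for St6galnac4. In CPM its mean in WT rTreg cells was 107, against 33.4 for St6galnac4.
The order differed in the other groups. St6gal1 stayed highest and St3gal1 was second in Foxp1 cKO rTreg, WT aTreg and Foxp1 cKO aTreg cells. St8sia6 was the sixth in Foxp1 cKO rTreg cells, at 13.1 and 16.0 FPKM, and the fourth in both aTreg groups, where its range overlapped that of the next gene. St8sia1 was the fifth in WT aTreg cells, at 7.19 and 13.2 FPKM, and the eighth in Foxp1 cKO aTreg cells, at 3.91 and 4.28 FPKM.
The summed FPKM of the 10 members was 163 and 164 in WT rTreg, 132 and 138 in Foxp1 cKO rTreg, 178 and 189 in WT aTreg, and 155 and 152 in Foxp1 cKO aTreg cells. St8sia6 made up 16.5% to 20.8% of that sum in WT rTreg cells, 9.92% to 11.6% in Foxp1 cKO rTreg cells, 5.04% to 7.36% in WT aTreg cells and 6.07% to 9.33% in Foxp1 cKO aTreg cells. St3gal1 took a share of 16.5% to 18.7% in WT rTreg cells and of 25.4% to 26.1% in WT aTreg cells.

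**Figure D1:**
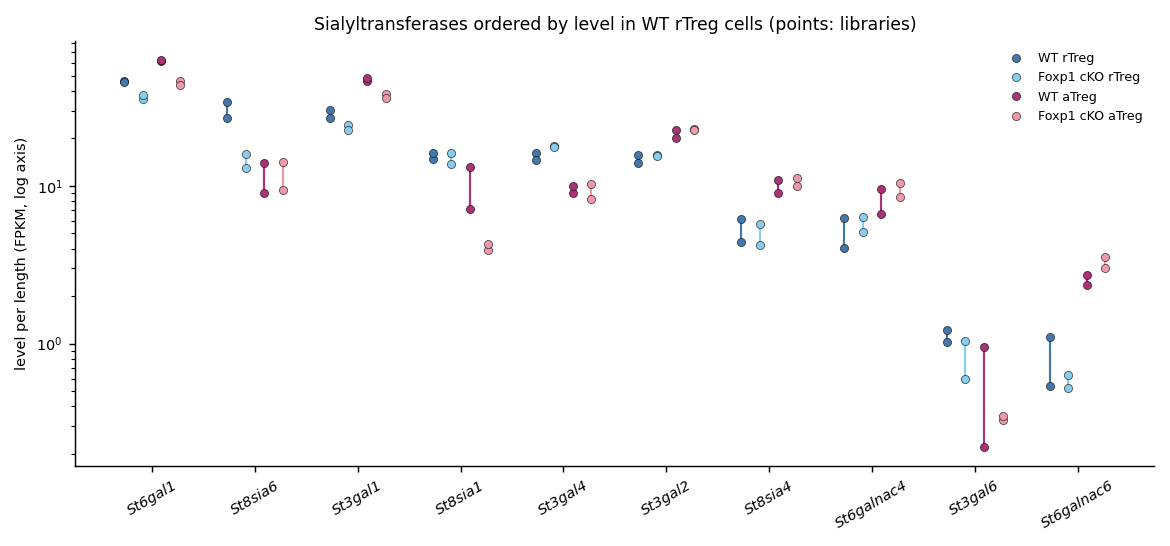
Level per length of the 10 sialyltransferases (FPKM, log axis), with 1 point per library, a line joining the 2 libraries of a group, and genes ordered by their mean in WT rTreg cells. St6gal1 was highest in every group, St8sia6 dropped from second to sixth place between WT and Foxp1 cKO rTreg cells, and St3gal6 and St6galnac6 lay at the bottom in each group.

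The same values were then followed within each gene as CPM normalized by the trimmed mean of M-values (TMM). Members differed in how far the 2 libraries of a group lay apart. St8sia6 was higher in replicate 2 than in replicate 1 in 4 of 4 groups, by 1.25 to 1.57-fold, and St8sia4 likewise by 1.18 to 1.45-fold. St6galnac4 went the other way in 4 of 4 groups, with replicate 1 higher by 1.16 to 1.5-fold. St3gal1, St3gal2 and St6gal1 differed by at most 1.11-fold between replicates in either direction. The replicate number, which sex follows, was a block in the model below.

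**Figure D2:**
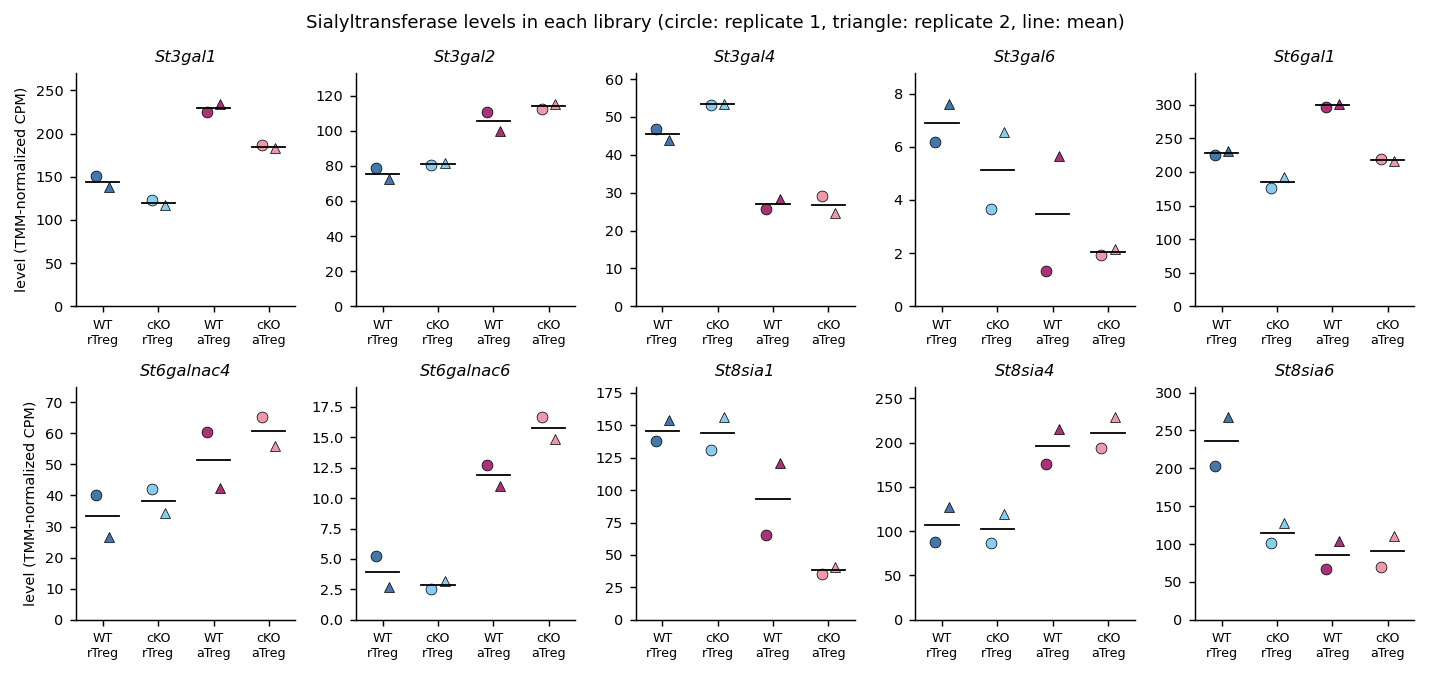
TMM-normalized CPM of each sialyltransferase in the 8 libraries, with a circle for replicate 1, a triangle for replicate 2 and a line at the group mean, on axes that start at 0. St8sia6 was highest in the WT rTreg libraries, St8sia1 lowest in the Foxp1 cKO aTreg libraries, and St6galnac6 and St8sia4 higher in the 4 aTreg libraries than in the 4 rTreg libraries.

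The first question was how the subsets differed in these genes when Foxp1 was intact. St8sia6 was not tested here, since the WT rTreg libraries had a part in its choice. Of the other 9 members, 6 were higher in WT aTreg than in WT rTreg cells at an adjusted p under 0.05 (edgeR quasi-likelihood test, Benjamini-Hochberg over all genes tested) and 2 were lower, against 31.9% of all genes tested (18.2% higher and 13.6% lower). With a 2-fold change also required, 1 of the 9 was called, St6galnac6 (up), against 12.3% of all genes (9.50% up and 2.83% down). The median log2 fold change of the 10 members was 0.44, and that of all genes was -0.0046. In these sorted bulk samples, fewer cells with a transcript and less of it per cell cannot be told apart. Some marker lists of other cell types were also higher in aTreg libraries, and others were not. The 5 plasma cell markers in the table summed to 41.5 to 63.8 CPM in rTreg and 89.6 to 136 CPM in aTreg libraries, most of it Irf4, which Treg cells also express. The 5 dendritic cell markers summed to 0.553 to 1.91 CPM and 5.13 to 10.4 CPM, and the 8 B cell markers to 8.47 to 9.88 CPM and 19.7 to 22.3 CPM. Of the dendritic cell markers, Zbtb46 had 6 to 96 counts over all libraries, Xcr1 0 to 34, Itgax 0 to 12 and Flt3 0 to 3. The CD8 T or NK cell markers summed to 14.3 to 19.4 CPM in rTreg and 11.2 to 14.6 CPM in aTreg libraries. The ranges of the myeloid (8.17 to 20.7 and 7.4 to 32.4 CPM) and erythroid markers (0.794 to 3.83 and 0.863 to 1.54 CPM) overlapped. The part of these cells in the subset differences was not tested.
Among the alpha2,3 enzymes, St3gal1 was up-regulated. It had 150.3 and 138 CPM in WT rTreg and 225 and 235 CPM in WT aTreg cells, and the aTreg libraries lay above both rTreg libraries (log2 fold change 0.67, SE 0.064, adjusted p = 2.20e-04). St3gal2, which also sialylates core 1 O-glycans and gangliosides, rose from 78.7 and 72.4 CPM to 110.9 and 99.95 CPM (0.48, SE 0.071, adjusted p = 0.00179). St3gal4, known for its part in making selectin ligands, moved the opposite way. It fell from 46.8 and 43.99 CPM to 25.8 and 28.5 CPM, with no overlap (log2 fold change -0.73, SE 0.10, adjusted p = 0.0013). St3gal6 had 6.17 and 7.62 CPM in WT rTreg and 1.32 and 5.64 CPM in WT aTreg cells and did not pass the test (-1.02, SE 0.38, adjusted p = 0.0788).
Among the alpha2,6 enzymes, St6gal1, the main sialyltransferase of N-glycans, rose from 225 and 231 CPM to 297 and 302 CPM (log2 fold change 0.39, SE 0.059, adjusted p = 0.00188). St6galnac4, which sialylates the core 1 O-glycan on its inner sugar, rose from 40.1 and 26.8 CPM to 60.6 and 42.4 CPM (0.62, SE 0.10, adjusted p = 0.00285). Its groups did not overlap, but its rise rested on the block and had an adjusted p of 0.135 without it. St6galnac6, which acts on glycolipids, was low in rTreg cells, with 57 and 34 counts (5.25 and 2.67 CPM), and had 116 and 172 counts (12.7 and 11.03 CPM) in WT aTreg cells. Its log2 fold change was 1.62 (SE 0.25, adjusted p = 0.00218), the highest of the members.
Among the alpha2,8 enzymes, St8sia4, one of the polysialyltransferases that build long sialic acid chains, rose from 87.6 and 127 CPM to 176 and 216 CPM (log2 fold change 0.88, SE 0.083, adjusted p = 2.09e-04). St8sia1, the GD3 synthase, which makes the ganglioside GD3 from GM3, had 138 and 154 CPM in WT rTreg and 65.3 and 121 CPM in WT aTreg cells. It fell by 0.68 on the log2 scale (SE 0.16, adjusted p = 0.0143; 0.145 without the block). St8sia6, which adds a second sialic acid to O-glycans and glycolipids, had 204 and 268 CPM in WT rTreg and 66.8 and 104 CPM in WT aTreg cells. All its aTreg values lay below both WT rTreg values, with a log2 difference of -1.48 (SE 0.094).
WT aTreg replicate 2 stood closer to the rTreg libraries than replicate 1 in several of these genes. It had 121 CPM of St8sia1 against 65.3 CPM and 5.64 CPM of St3gal6 against 1.32 CPM. Without this library, 3 of the 9 tested members were called in place of 1, with log2 fold changes of -1.06 for St8sia1 (adjusted p = 1.83e-04) and -2.15 for St3gal6 (adjusted p = 0.00816). Without WT aTreg replicate 1 in its place they were -0.38 (adjusted p = 0.0192) and -0.497 (adjusted p = 0.284).

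The same question was put to the Foxp1-deficient subsets, in 4 libraries other than those compared in WT cells. Both comparisons come from the same model of all 8 libraries and share its block and its estimate of the spread. St8sia6 was again left untested. Of the other 9 members, 6 were higher and 3 lower in aTreg cells at an adjusted p under 0.05, against 40.1% of all genes tested (21.9% higher and 18.2% lower). St3gal1, St3gal2, St6gal1, St6galnac4, St6galnac6 and St8sia4 were higher in aTreg cells of both genotypes, and St3gal4, St3gal6 and St8sia1 lower. St8sia6 was also lower in both, by values that include the rTreg libraries behind its choice. The share of all genes that kept their sign was not computed, so these signs are a description. With a 2-fold change required, 4 were called, against 15.7% of all genes (11.3% up and 4.39% down), namely St6galnac6 and St8sia4 up and St8sia1 and St3gal6 down.
St6galnac6 went from 16 and 44 counts (2.55 and 3.18 CPM) in Foxp1 cKO rTreg cells to 199 and 207 counts (16.7 and 14.9 CPM) in Foxp1 cKO aTreg cells. Its log2 fold change of 2.38 (SE 0.26, adjusted p = 3.08e-04) was again the highest of the members. St8sia4 rose from 86.2 and 119 CPM to 194 and 229 CPM (1.05, SE 0.084, adjusted p = 6.22e-05). Without Foxp1 cKO aTreg replicate 1 its log2 fold change was 0.97, just under 2-fold.
St8sia1 had the largest fall of the members. It was at 131 and 157 CPM in Foxp1 cKO rTreg and at 35.5 and 40.6 CPM in Foxp1 cKO aTreg cells, 3.77-fold lower (log2 fold change -1.92, SE 0.17, adjusted p = 1.01e-04). St3gal4 fell from 53.1 and 53.5 CPM to 29.1 and 24.6 CPM, by 1.99-fold, and so stood next to the 2-fold limit (log2 fold change -0.996, adjusted p = 2.13e-04). St3gal6 had 3.67 and 6.57 CPM in rTreg and 1.93 and 2.16 CPM in aTreg cells, with 23 to 91 counts behind these values (-1.31, SE 0.43, adjusted p = 0.0436). This last call was lost without the block (adjusted p = 0.16), with DESeq2 (0.0775) and when any 1 of the 4 libraries of the comparison was left out.
The other members that rose had log2 fold changes of 0.62 for St3gal1 (adjusted p = 2.36e-04), 0.49 for St3gal2 (0.00118), 0.24 for St6gal1 (0.0144) and 0.67 for St6galnac4 (0.00148). Without the block the adjusted p was 0.0625 for St6gal1 and 0.0861 for St6galnac4. St8sia6 had 102 and 127 CPM in Foxp1 cKO rTreg and 70.1 and 110.3 CPM in Foxp1 cKO aTreg cells. Its groups overlapped in Foxp1-deficient cells, and its log2 difference was -0.36 (SE 0.094).

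**Figure D3:**
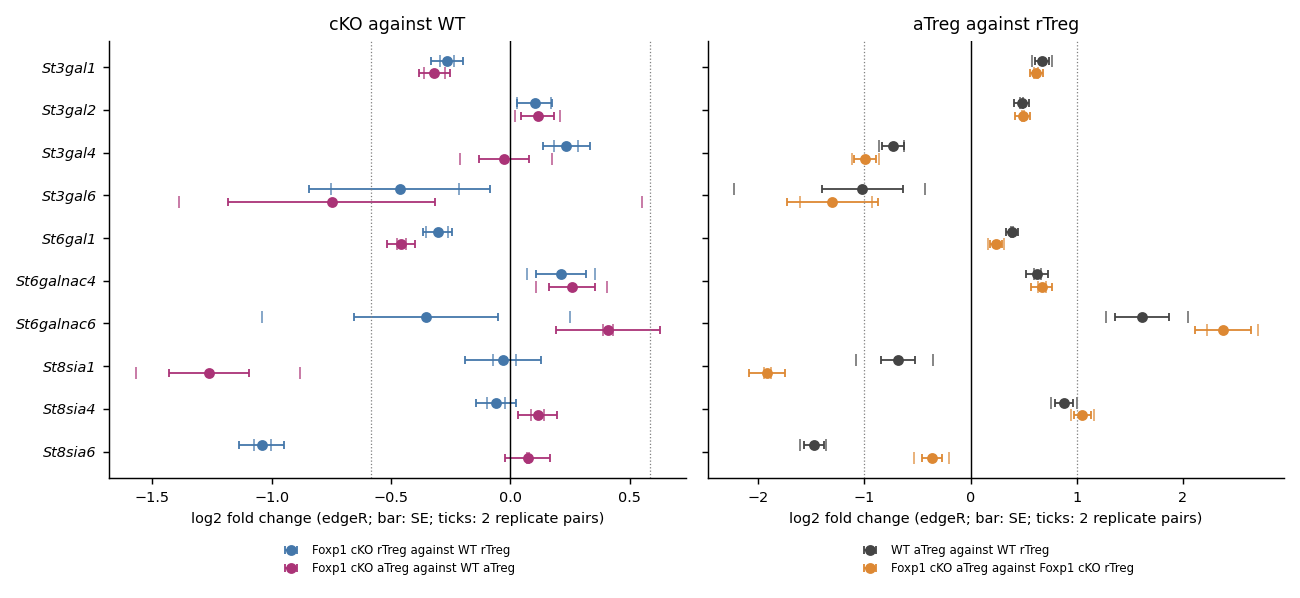
Log2 fold change of each member for Foxp1 cKO against WT cells (left) and aTreg against rTreg cells (right), with points from edgeR, bars of 1 SE, vertical ticks for the 2 replicate pairs and dotted lines at 1.5-fold (left) and 2-fold (right). St8sia6 was lowest in rTreg cells at -1.04 and near 0 in aTreg cells, and St8sia1 showed the opposite order. On the right the members kept their sign between genotypes, a description with no share of all genes beside it.

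The second question was what Foxp1 deletion changed within a subset. The values in rTreg cells are those by which the set was chosen. St8sia6 had 2212 and 3410 counts (204 and 268 CPM) in WT rTreg cells and 638 and 1764 counts (102 and 127 CPM) in Foxp1 cKO rTreg cells. Both Foxp1-deficient libraries lay below both WT libraries, the log2 difference was -1.04 (SE 0.093, 2.06-fold), and the pairs gave -1.003 and -1.072.
The other members moved less in rTreg cells. St6gal1 was at 176 and 193 CPM in Foxp1 cKO rTreg against 225 and 231 CPM in WT rTreg cells, a log2 difference of -0.30 (SE 0.059). St3gal1 was at 123 and 117 CPM against 150.3 and 138 CPM, a log2 difference of -0.27 (SE 0.065). In both genes the groups did not overlap, and the same held for St3gal4 and St3gal2, which were higher in Foxp1 cKO rTreg cells. The share of all genes without overlap was not computed. St3gal4 was at 53.1 and 53.5 CPM against 46.8 and 43.99 CPM (0.24, SE 0.099). St8sia1, the member that changed most in aTreg cells, had a log2 difference of -0.03 (SE 0.16) in rTreg cells, and St8sia4 of -0.06 (SE 0.084). St3gal2 and St6galnac4 had log2 differences of 0.10 (SE 0.072) and 0.21 (SE 0.11). St3gal6 and St6galnac6, with 16 to 97 counts a library, had log2 differences of -0.46 (SE 0.38) and -0.35 (SE 0.30), and the pairs of St6galnac6 had opposite signs.

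In aTreg cells, whose libraries are outside the contrast that led to the choice of the set, 3 members were lower in Foxp1-deficient cells at an adjusted p under 0.05 and none was higher, against 6.88% of all genes in either direction, 2.77% lower and 4.11% higher. St6galnac4, with a log2 fold change of 0.26 (edgeR adjusted p = 0.164), was higher at an unadjusted p under 0.05. With a 1.5-fold change required, 1 of the 10 members was called, St8sia1, against 4.03% of all genes, 1.66% lower.
St8sia1 was at 65.3 and 121 CPM in WT aTreg and at 35.5 and 40.6 CPM in Foxp1 cKO aTreg cells. Both Foxp1-deficient values lay below both WT values, 2.397-fold lower in the fit (log2 fold change -1.26, SE 0.17, adjusted p = 0.00723), and the pairs gave -0.88 and -1.57. Without WT aTreg replicate 2, the library with the higher St8sia1 level, the log2 fold change was -0.89 (adjusted p = 0.00644). Without Foxp1 cKO aTreg replicate 2 it was -1.14 (adjusted p = 0.104), and without the block the adjusted p was 0.107.
St6gal1 was down-regulated from 297 and 302 CPM to 219 and 217 CPM, with a close spread in both groups (log2 fold change -0.46, SE 0.059, adjusted p = 0.00638; 0.0595 without the block). B cells are known for high St6gal1. The 8 B cell markers summed to 19.7 to 20.3 CPM in WT aTreg and 19.8 to 22.3 CPM in Foxp1 cKO aTreg cells, with 5 of the 8 over 3 counts in each group. Over all libraries Cd79b had 33 to 247 counts, Cd79a 20 to 60 and Ms4a1 0 to 4. The part of B cells in the St6gal1 difference was not tested. St3gal1 fell from 225 and 235 CPM to 186 and 183 CPM (-0.32, SE 0.064, adjusted p = 0.0288). Its adjusted p was 0.162 without the block and 0.0827 with only the 4 libraries of the comparison in the fit.
St8sia6 was at 66.8 and 104 CPM in WT aTreg and at 70.1 and 110.3 CPM in Foxp1 cKO aTreg cells. The groups overlapped, and the log2 fold change was 0.07 (SE 0.094, adjusted p = 0.702). The remaining members had log2 fold changes between -0.75 (St3gal6, SE 0.43, pairs of 0.55 and -1.39) and 0.41 (St6galnac6, SE 0.22) and did not pass the test.

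An interaction term of the same model asked whether Foxp1 deletion had a different effect in the 2 subsets, and in it 0.330% of all genes (48 of 14540) passed. For St8sia1 the log2 difference of the effects was -1.23 (SE 0.23), with an unadjusted p of 7.71e-04 and an adjusted p of 0.0699, so it did not pass over all genes. No other tested member had an unadjusted p under 0.05. St8sia1 passed with DESeq2 (adjusted p = 4.9e-04) and without the filter on low counts (adjusted p = 6.95e-06), and had an adjusted p of 0.553 without the block. For St8sia6 the log2 difference of the effects was 1.11 (SE 0.13) and is given without a p, because it contains the rTreg difference behind the choice of the set. The adjusted p of the other 8 members was 0.448 or more. The effects on St6gal1 and St3gal1 had the same sign in both subsets, with log2 differences between the effects of -0.15 (SE 0.083) and -0.05 (SE 0.091).

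The remaining genes of the pathway were taken from lists of enzymes, substrates and readers. Of all genes tested, 5.60% were called in the rTreg genotype comparison and 4.03% in the aTreg one. Between the subsets 12.3% were called in WT and 15.7% in Foxp1-deficient cells, and 0.330% passed the interaction. Of the 10 other sialyltransferases listed, 7 had rows and 4 were tested, and St6gal2, St8sia3 and St8sia5 were not analysed here. None of the 4 passed in either genotype comparison. In Foxp1 cKO rTreg cells St3gal5 had a log2 fold change of -1.17 (edgeR adjusted p = 0.089) and St3gal3 of -0.61 (adjusted p = 0.0682). St6galnac3 was higher there (0.54, edgeR adjusted p = 0.104). St6galnac2, with 10 to 27 counts in these libraries, had a log2 fold change of -0.39 (SE 0.57, edgeR adjusted p = 0.708). Its pairs had opposite signs, 0.036 and -0.89. A second entry under the symbol St6galnac2 had 0 to 4 counts a library and was not tested. Between the WT subsets St3gal5 and St6galnac3 were called, both up in aTreg cells. St3gal5, the GM3 synthase that supplies the substrate of St8sia1, had 26 and 21 counts in WT rTreg and 49 and 92 counts in WT aTreg cells (log2 fold change 1.52, adjusted p = 0.00482). It had 7 and 10 counts in Foxp1 cKO rTreg and 90 and 69 counts in Foxp1 cKO aTreg cells (2.79, adjusted p = 4.34e-04). St3gal5 was thus higher in aTreg cells of both genotypes, where St8sia1 was lower. St6galnac3 rose from 8.93 and 7.39 CPM to 22.7 and 15.8 CPM (1.22, adjusted p = 0.00159).
Of the 10 genes for the synthesis, transport and modification of sialic acid, 9 were tested. Slc17a5, which encodes sialin, the exporter of sialic acid from lysosomes, was the 1 gene of the list called in each genotype comparison. It rose from 15.6 and 12.02 CPM to 26.8 and 22.9 CPM in rTreg cells (log2 fold change 0.85, adjusted p = 0.00791), and from 19.8 and 18.9 CPM to 34.2 and 35.3 CPM in aTreg cells (0.85, adjusted p = 0.0092; 0.0731 without the block). Cmah, the hydroxylase that turns the sialic acid Neu5Ac into Neu5Gc, was the 1 gene called between the subsets. It fell from 356 and 412 CPM to 149 and 199 CPM in WT cells (-1.15, adjusted p = 3.73e-05) and from 301 and 332 CPM to 141 and 175 CPM in Foxp1-deficient cells (-1.01, adjusted p = 4.60e-05).
Of the 4 sialidases, the enzymes that remove sialic acid, 2 were tested. Neu3, the sialidase of plasma membrane gangliosides, rose from 18.1 and 13.4 CPM in WT rTreg to 55.6 and 48.9 CPM in WT aTreg cells (log2 fold change 1.74, adjusted p = 1.50e-04), and by 2.16 in Foxp1-deficient cells (adjusted p = 4.54e-05). Neu1, the lysosomal sialidase, was higher in Foxp1 cKO rTreg cells, at 149.8 and 165 CPM against 90.3 and 114 CPM (0.63, adjusted p = 0.00324; 0.0769 without the block).

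Of the 30 genes listed for building the acceptors of sialic acid or competing for them, most of them glycosyltransferases, 24 were tested. None was called in Foxp1 cKO rTreg cells, where 5.60% of all genes were called. In Foxp1 cKO aTreg cells 1 was called up and 2 down (4.03% of all genes), and between the WT subsets 4 up and 2 down (12.3% of all genes). The median log2 fold change of the list between the WT subsets was -0.12, against -0.0046 over all genes. Gcnt1, which branches the core 1 O-glycan into core 2, was the gene of this list with the largest difference. It had 8 and 8 counts in WT rTreg and 367 and 468 counts in WT aTreg cells (log2 fold change 5.66, adjusted p = 1.70e-05), and its log2 fold change was 5.23 (adjusted p = 1.97e-05) in Foxp1-deficient cells. Fut7, the fucosyltransferase that completes sialyl Lewis x, had 7 and 8 counts in WT rTreg and 81 and 84 counts in WT aTreg cells (3.43, adjusted p = 3.45e-04), and 9 and 23 against 132 and 179 counts in Foxp1-deficient cells (2.90, adjusted p = 2.47e-04).
Ugcg, the ceramide glucosyltransferase that begins glycolipid synthesis, fell from 306 and 209 CPM to 100.9 and 108 CPM between the WT subsets (log2 fold change -1.28, adjusted p = 3.13e-04) and was also lower between the Foxp1-deficient subsets (-2.09, adjusted p = 2.54e-05), while the interaction did not pass (adjusted p = 0.115). It was also lower in Foxp1 cKO aTreg than in WT aTreg cells, at 70.8 and 64.6 CPM (-0.63, adjusted p = 0.033; 0.228 without the block). Chst15, a sulfotransferase of chondroitin sulfate, fell from 26.6 and 29.3 CPM to 12.8 and 11.1 CPM in aTreg cells with Foxp1 deletion (-1.23, adjusted p = 0.00716). It was called up in WT aTreg against WT rTreg cells (1.08, adjusted p = 0.00196), but not between the Foxp1-deficient subsets (0.10, adjusted p = 0.684). B3gnt5, which starts the lacto series of glycolipids, rose from 21.1 and 19.2 CPM to 36.0 and 43.0 CPM (0.97, adjusted p = 0.0149; 0.141 without the block). Galnt10, of the family that starts O-glycans, was lower in aTreg than in rTreg cells of both genotypes. Its log2 fold change was -1.27 in WT (adjusted p = 4.25e-05) and -1.48 in Foxp1-deficient cells (adjusted p = 1.40e-05). Mgat4b, which branches N-glycans, was higher in aTreg cells of both genotypes, by 1.22 in WT (adjusted p = 0.00214) and 1.66 in Foxp1-deficient cells (adjusted p = 4.31e-04).

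**Figure D4:**
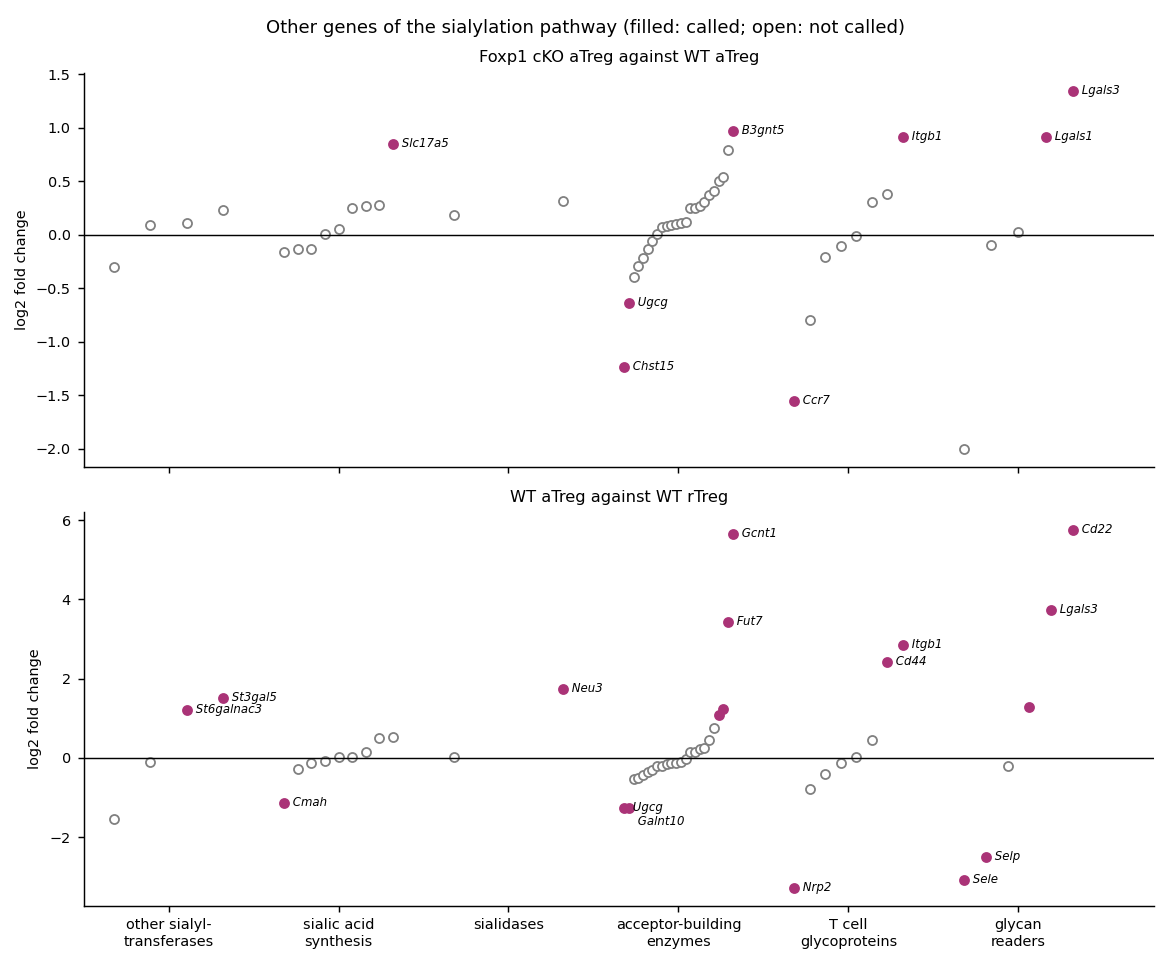
Log2 fold changes of the tested genes of 6 lists around sialylation, in Foxp1 cKO against WT aTreg cells (top) and WT aTreg against WT rTreg cells (bottom), with filled points for called genes (adjusted p under 0.05 with 1.5-fold in the top panel and 2-fold in the bottom panel) and names for at most 4 called genes a list. Gcnt1 at 5.66 and Cd22 lay highest between the WT subsets, and Slc17a5 was the 1 called gene of the synthesis list in the top panel, from which Selp, at 0 counts in both Foxp1 cKO aTreg libraries, is left out, and 1 gene of the reader list is shown in neither panel.

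Of the 10 glycoproteins listed as carriers of sialylated chains on T cells, 8 were tested. In Foxp1 cKO aTreg cells Ccr7, the lymph node homing receptor whose chains can carry polysialic acid, fell from 205 and 196 CPM to 79.6 and 59.1 CPM (log2 fold change -1.56, adjusted p = 5.98e-04), and Itgb1, the integrin beta1 chain, rose from 589 and 502 CPM to 883 and 1189 CPM (0.91, adjusted p = 0.0122; 0.0752 without the block). Ccr7 was also the 1 gene of all lists to pass the interaction. Between the WT subsets 2 genes were called up, Itgb1 (2.85, adjusted p = 1.64e-05) and Cd44 (2.41, adjusted p = 5.82e-06), and Nrp2, a known carrier of polysialic acid, was called down (-3.28, adjusted p = 2.01e-04). These 3 genes were called in the same direction between the Foxp1-deficient subsets, with Ccr7 as a further gene called down (-1.87, adjusted p = 1.22e-05).
Of the 15 readers of sialylated or desialylated glycans, 7 were tested. Lgals1 and Lgals3, which encode galectins, rose in aTreg cells with Foxp1 deletion. Lgals1 had 87.8 and 87.3 CPM in WT aTreg and 157 and 173 CPM in Foxp1 cKO aTreg cells (0.91, adjusted p = 6.41e-04), and Lgals3 had 28 and 95 against 134 and 170 counts (1.34, adjusted p = 0.0435; 0.239 without the block). Lgals1 also rose in rTreg cells, from 35.2 and 36.7 CPM to 52.8 and 56.3 CPM (0.60, adjusted p = 0.00266). Cd22, a Siglec that binds alpha2,6-linked sialic acid and is best known in B cells, had 4 and 3 counts in WT rTreg, 9 and 9 in Foxp1 cKO rTreg, 181 and 213 in WT aTreg and 216 and 182 in Foxp1 cKO aTreg cells. The rTreg genotype difference passed at an adjusted p of 0.0487 (0.238 without the block). The 8 B cell markers moved with it, from 8.47 to 9.88 CPM in rTreg libraries to 19.7 to 22.3 CPM in aTreg libraries, with Cd79b (33 to 247 counts) and Cd79a (20 to 60 counts) read in every library, and their part in the Cd22 counts was not tested. The genes of the vascular selectins went the other way, with 66 and 66 counts of Sele in WT rTreg, 18 and 28 in Foxp1 cKO rTreg, 5 and 11 in WT aTreg and 1 and 3 in Foxp1 cKO aTreg cells. Sele was lower in Foxp1 cKO rTreg than in WT rTreg cells (log2 fold change -1.24, adjusted p = 0.0362; 0.142 without the block). Selp had 78 and 80 counts in WT rTreg, 19 and 30 in Foxp1 cKO rTreg, 20 and 8 in WT aTreg and 0 and 0 in Foxp1 cKO aTreg cells, and no fold is given for that last group.

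The genes with the profile most like that of St8sia6 were found by the root mean square (RMS) difference between log2 CPM profiles centred on their mean over the 8 libraries, among 14530 genes. Over all those genes the median RMS difference to St8sia6 was 0.706 and the lowest 1% began under 0.388. The 5 genes with the smallest RMS difference were Jsrp1 (0.125), Stx1a (0.233), Txnip (0.236), Gm8995 (0.239) and Tcp11 (0.26). Jsrp1 had 2 to 14 counts a library and Tcp11 7 to 29, so their profiles rest on few reads. Txnip, which encodes the thioredoxin-interacting protein, had 681 and 844 CPM in WT rTreg, 390 and 476 in Foxp1 cKO rTreg, 280 and 451 in WT aTreg, and 194 and 304 in Foxp1 cKO aTreg cells. Stx1a, which encodes a syntaxin, had 75.1 and 86.8, 42.2 and 57.6, 34.6 and 39.2, and 27.9 and 33.4 CPM in the same order. The profiles share the 8 libraries and their replicate differences, and likeness is given as a description with no test.

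**Figure D5:**
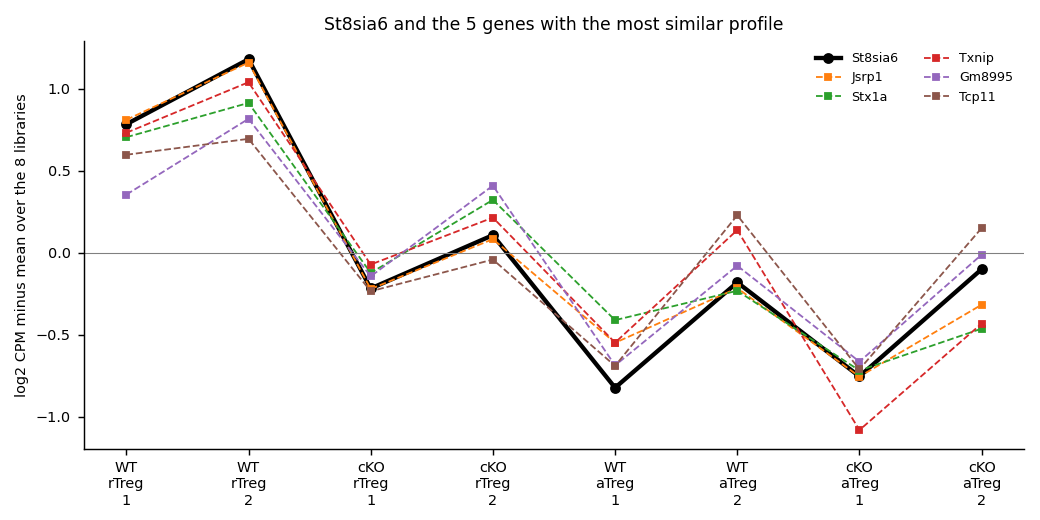
Centred log2 CPM of St8sia6 (black) and the 5 genes with the smallest RMS difference to it, over the 8 libraries. The 2 WT rTreg libraries were highest in 5 of the 6 genes (in Gm8995, Foxp1 cKO rTreg replicate 2 lay above WT rTreg replicate 1), and replicate 2 lay above replicate 1 in 4 of 4 groups.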

How the data were processed

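RNA was sequenced in 8 libraries of rTreg and aTreg cells, 2 per group. The deposited values are raw counts of reads per Ensembl gene. The authors trimmed paired-end reads, removed duplicates and counted with HTSeq, and the submitters' processing notes name HISAT2 2.0.5 and mm10. The FPKM values deposited by the authors equal the count divided by the library total and 1 length per gene (relative spread across libraries at most 2.83e-06 over 8883 genes), and served only to compare levels between genes. The length implied for St3gal1 was 4985 bases, against 6851 bases of merged exons.

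The test was the quasi-likelihood test of edgeR 4.0.16 in R 4.3.3 (TMM, filterByExpr with a minimum count of 10, glmQLFit, glmQLFTest). All 8 libraries entered, with terms for group and, as a block, replicate number. Adjusted p-values are Benjamini-Hochberg over 14540 genes, and 13054 genes were left out by the filter. Calls needed an adjusted p under 0.05 and at least 1.5-fold (genotype) or 2-fold (subset), and in the interaction the adjusted p alone. The block follows the paired analysis in the study's methods. The study mentions 2 rounds of sequencing. Deviations from the group means correlated between same-numbered libraries by 0.38 to 0.597 over 14540 genes in the 4 comparisons. Alternatives were DESeq2 1.42.0, limma 3.58.1 (voom), RLE scaling, 2 other filters, no block, only the libraries compared, and leaving out replicates, while leaving out 1 library of 8 at a time was added after seeing the data. CPM per library is TMM-normalized.

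The members and gene lists were chosen with earlier results of these data known. From the lists, called genes are named, at most the 4 with the largest change per list and comparison, and the 5 genes nearest to St8sia6 by profile. Some listed genes are not reported here. Floors and counts cover counting error only, since the reads carry no molecular identifiers.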

Additional observations from a re-analysis of the deposited data

Results flagged for a closer look

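The effect of Foxp1 deletion on Ccr7, a carrier of sialylated chains, differed between the subsets by an interaction test. The log2 difference of the effects, aTreg minus rTreg, was -1.08 (SE 0.14, edgeR adjusted p = 0.0316), and the adjusted p was 0.53 without the replicate block.

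For St8sia6 the log2 difference of the effects was 1.11. Both rTreg pairs had a negative log2 difference (-1.003 and -1.072) and both aTreg pairs a positive one (0.069 and 0.080), and the difference was not tested because the rTreg values led to the choice of the gene.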

How the results depend on the processing

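St8sia6 in the rTreg genotype comparison, a value with no test, had a log2 difference of -1.06 to -1.04 under the other tools, scalings and filters and without the replicate block, and of -1.16 to -0.92 with libraries left out. Among the tested members, 0 were called in the aTreg genotype comparison without the replicate block, in place of 1. Between the WT subsets 2 were called without a filter on low counts, in place of 1, the second being St3gal6. In the interaction 1 passed with DESeq2 (over the 10875 genes with an adjusted p) and 1 without a filter, in place of 0, both times St8sia1. With libraries left out, the count ran from 0 to 1 in the aTreg genotype comparison (0 without Foxp1 cKO aTreg replicate 2), from 1 to 3 between the WT subsets (3 without WT aTreg replicate 2) and from 0 to 1 in the interaction (1 without either WT aTreg library, St8sia1). Signs turned only with libraries left out, and only for members that did not pass the test. Over these settings the log2 fold change in the aTreg genotype comparison ran from -0.21 to 0.17 for St3gal4, -1.39 to 0.55 for St3gal6 and -0.035 to 0.17 for St8sia6. In the interaction it ran from -0.125 to 0.021 for St3gal1, -0.053 to 0.084 for St3gal2, -1.17 to 1.30 for St3gal6 and -0.086 to 0.17 for St6galnac4. The cause was not tested in any of these. Of the log2 values of members over all settings, 620 kept their direction and side of the threshold, 22 moved by more than the error, 11 gained and 9 lost a call, and 18 turned sign. Libraries of 2 per group limit every comparison, and members with 12 to 207 counts a library (St3gal6 and St6galnac6) had the largest errors.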
